A study of Mus musculus with 11 samples.

Results

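The genes described here are 8 host genes, Patl2, Gm32650, Art3, A230098N10Rik, Gm40121, Gm12223, Med12l and Gm38424, out of 36529 genes listed in the count files of BV2 microglial cells. Each was chosen by the counts of its neighbourhood, as its span encloses a gene of immune or mitochondrial function that had 0 reads in all 11 libraries. In the order of the hosts, the hidden genes were B2m, Ccl5, Cxcl10, Il6, Csf1, Csf2, P2ry12 and Mrpl33. The members were thus selected on the counts of 0 of the hidden genes, which are given as a description. The rule itself does not use the counts of the host genes. The members were proposed with earlier results of these data known, so the tests of the hosts are not free of selection.

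BV2 is a transformed mouse microglial line, labelled as of C57BL/6 origin, so all libraries came from a single cell line. In one experiment, 3 samples received nApoE4 1–151, the amino-terminal fragment of human apolipoprotein E4 (group ApoE4), and 3 untreated samples were their controls (ControlA). In the other, 2 samples received nApoE3 1–151, the matching fragment of apolipoprotein E3 (group ApoE3), beside 3 untreated samples of their own (ControlB). Both fragments carried a histidine tag from their purification and were given at 25 µg/ml for 5 h. The labels name PBS as the vehicle of the controls, whereas the methods describe conditioned media. The paper speaks of 3 independent measurements or trials that were averaged, while group ApoE3 has 2 libraries. Whether the replicates were separate cultures is not stated, so the p-values measure the spread between these samples. Libraries held 39732710 to 44162511 counted reads in the nApoE4 experiment and 55809688 to 69768666 in the nApoE3 experiment. Of 16 microglial marker genes, 11 reached 1 CPM (counts scaled to the library total) in every library, while no astrocyte or neuron marker and 1 of 4 oligodendrocyte markers did. The microglial marker at 3 counts or fewer, Gpr34, itself lies inside another gene.

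Genes can lie within the introns of other genes or on the opposite strand of the same stretch of DNA. HTSeq, in its default mode, adds a read to a gene only where the read falls on the counted features of that gene and of no other, and tallies a read that falls on several as ambiguous. Where whole genes are the counted features, a read inside both a host and the gene it encloses is added to neither, and where exons are, a read on an enclosed gene in an intron of the host is counted. The feature type used for these files is not given in the sources used here. The hidden genes are well known in microglia. B2m encodes the light chain of MHC class I molecules, Ccl5 and Cxcl10 encode chemokines that draw T cells and other leukocytes, Il6 encodes an inflammatory cytokine, and Csf1 and Csf2 encode growth factors of macrophages. P2ry12 encodes an ADP receptor of resting microglia, and Mrpl33 a protein of the large mitochondrial ribosomal subunit. Among the hosts, Patl2 is a relative of the mRNA decapping factor Patl1, Art3 belongs to the ADP-ribosyltransferase family, and Med12l is a relative of the Mediator subunit Med12. The other 5 hosts are annotated as long noncoding RNAs.

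The host genes span 26.6 to 313 kb in the RefSeq annotation of GRCm38.p6. Patl2 lies at chr2:122120108-122186189 on the minus strand and encloses B2m, which begins 27579 bases inside it. Gm32650 lies at chr11:83511289-83546540 on the plus strand around Ccl5. Art3 lies at chr5:92331799-92414628 on the plus strand around Cxcl10. A230098N10Rik lies at chr5:30004435-30030987 on the minus strand around Il6. Of these, Art3 is the least covered by other genes, at 2.72% of its span, and Gm32650 the most, at 44.1%. Gm40121 lies at chr3:107696225-107812951 on the plus strand around Csf1, and Gm12223 at chr11:54141868-54260537 on the plus strand around Csf2. Med12l, at chr3:59005419-59318446 on the plus strand, holds P2ry12 among other genes. Gm38424, at chr5:31596943-31663432 on the plus strand, holds Mrpl33 and is 71.7% covered by other genes. Of the 8 hidden genes, 7 are on the strand opposite to their host, and Mrpl33 is on the same strand.

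**Figure D1:**
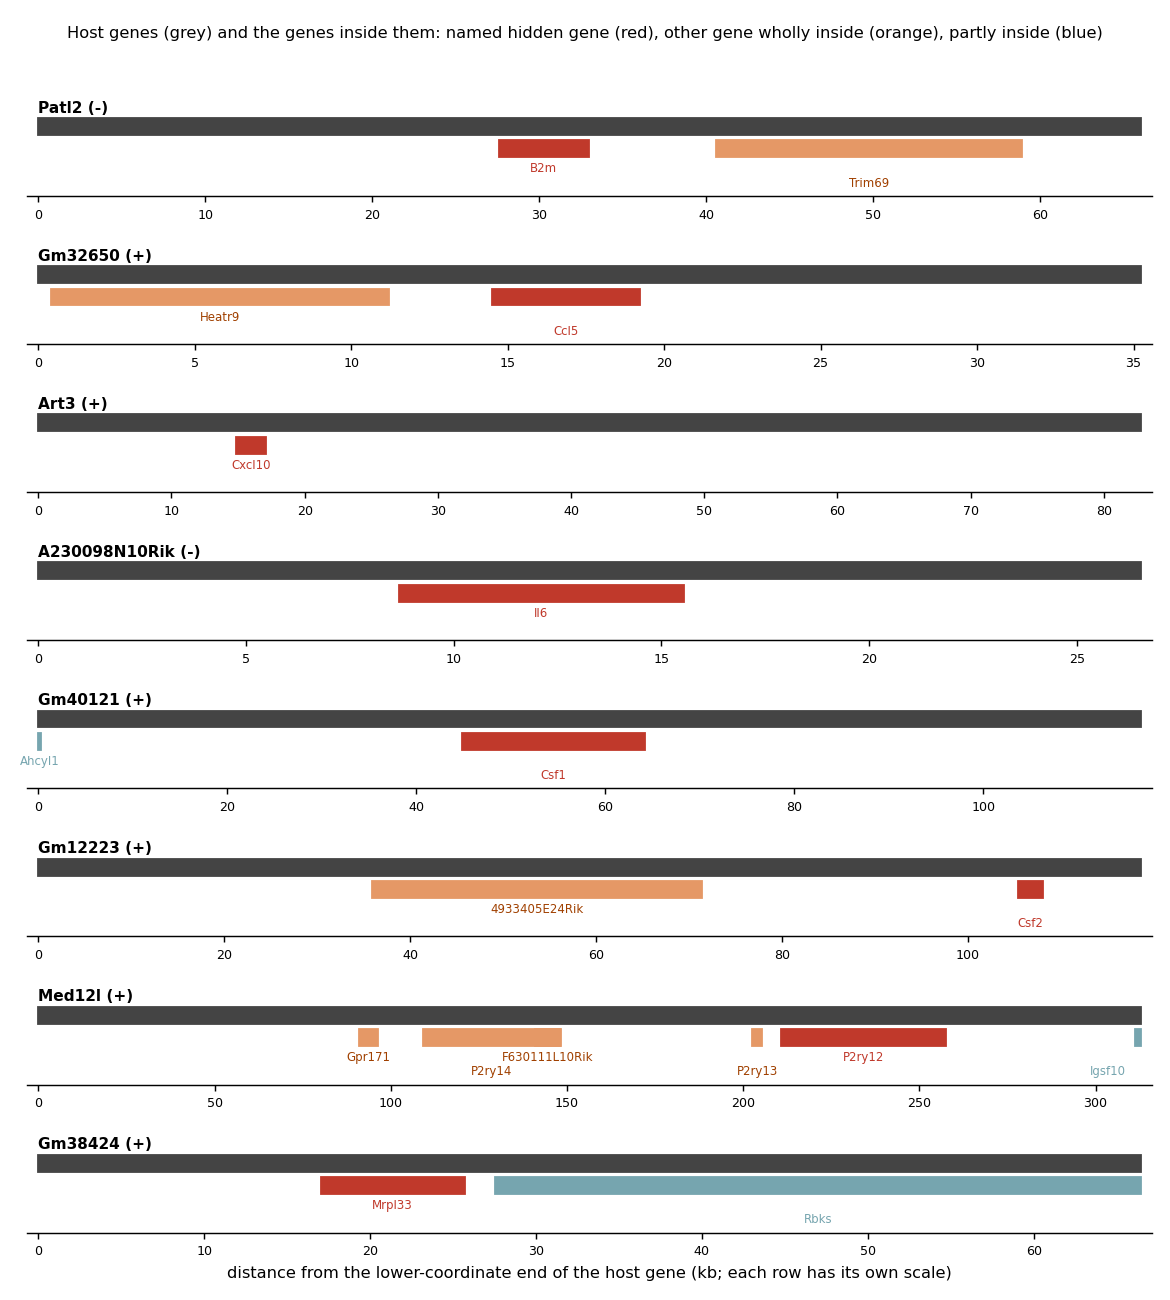
Map of the 8 host genes (grey, with the strand in brackets), with distance in kb from the lower-coordinate end of each host on the x axis and a separate scale per row. Red bars are the hidden genes named with each host, orange bars other genes wholly inside it and blue bars the stretch of a gene that overlaps it in part. All 15 genes drawn wholly inside were at 0 in every library, the hidden genes by the choice of the hosts.

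The promoters of the hidden genes are shown because they lie inside the hosts, so that the start of each of these genes lies within the host span. RefSeq promoter windows of 250 bases before to 50 bases after the start site were found for all 8 hosts and for 7 of the 8 hidden genes. Each of these 7 hidden windows lay wholly inside the span of its host. In the sequences below, capitals mark matches, on either strand, to the letters GGGNNTTTC (a shortened kappa B motif, bound by NF-kappa B), GAAANNGAA (a shortened interferon-stimulated response element) and TGACTCA (an AP-1 motif). Each motif has forms that these letters do not match, so a window without a match may still hold a site. The 5 hidden genes with at least 1 match to the kappa B or interferon letters are printed, from GRCm38.p6.
B2m (chr2:122147437-122147736, + strand): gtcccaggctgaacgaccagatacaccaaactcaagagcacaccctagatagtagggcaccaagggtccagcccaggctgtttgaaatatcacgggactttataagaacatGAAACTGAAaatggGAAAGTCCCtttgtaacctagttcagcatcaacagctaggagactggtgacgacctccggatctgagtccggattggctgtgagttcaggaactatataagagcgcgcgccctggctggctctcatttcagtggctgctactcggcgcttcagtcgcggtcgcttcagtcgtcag
Cxcl10 (chr5:92348840-92349139, - strand): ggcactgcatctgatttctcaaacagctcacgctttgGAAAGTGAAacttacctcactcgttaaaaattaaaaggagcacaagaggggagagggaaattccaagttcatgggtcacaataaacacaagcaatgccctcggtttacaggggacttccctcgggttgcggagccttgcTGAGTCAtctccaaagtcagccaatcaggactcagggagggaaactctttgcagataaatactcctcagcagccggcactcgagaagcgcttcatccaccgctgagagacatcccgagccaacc
Il6 (chr5:30012864-30013163, + strand): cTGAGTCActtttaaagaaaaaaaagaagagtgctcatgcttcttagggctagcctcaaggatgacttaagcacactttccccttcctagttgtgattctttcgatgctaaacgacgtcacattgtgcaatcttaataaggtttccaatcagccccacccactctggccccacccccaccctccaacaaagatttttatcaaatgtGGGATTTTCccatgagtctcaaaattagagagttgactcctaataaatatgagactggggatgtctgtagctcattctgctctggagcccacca
Csf1 (chr3:107760420-107760719, - strand): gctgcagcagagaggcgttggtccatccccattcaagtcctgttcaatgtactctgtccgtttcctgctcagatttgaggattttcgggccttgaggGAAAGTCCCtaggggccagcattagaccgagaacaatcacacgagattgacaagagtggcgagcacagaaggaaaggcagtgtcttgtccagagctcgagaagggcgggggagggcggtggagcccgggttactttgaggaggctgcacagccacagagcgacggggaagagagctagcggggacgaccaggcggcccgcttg
Csf2 (chr11:54249850-54250149, - strand): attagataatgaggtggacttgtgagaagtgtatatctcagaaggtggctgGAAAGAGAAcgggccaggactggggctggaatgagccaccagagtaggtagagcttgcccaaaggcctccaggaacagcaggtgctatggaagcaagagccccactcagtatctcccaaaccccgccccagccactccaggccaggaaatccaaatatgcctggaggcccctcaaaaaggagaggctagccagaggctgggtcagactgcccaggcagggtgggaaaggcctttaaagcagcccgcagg

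The B2m window held the interferon letters from 139 bases and the kappa B letters from 125 bases before the start site, and the matches do not overlap. Cxcl10 had the interferon letters from 213 bases and the AP-1 letters from 74 bases before its start. The kappa B letters had no match there, which does not show that an NF-kappa B site is absent. In Il6 the kappa B letters began 44 bases and the AP-1 letters 249 bases before the start, and in Csf1 the kappa B letters began 153 bases before it, and Csf2 held the interferon letters from 199 bases before its start. Mrpl33 held the AP-1 letters from 85 bases before its start, and the P2ry12 window held none of the 3. Over the 32851 promoter windows of the table, 4.36% held the kappa B letters, 8.56% the interferon letters and 5.20% the AP-1 letters. The kappa B and interferon letters were shortened after longer forms had not matched the Csf2 window. The shares are therefore a description, and no excess of matches in the hidden windows was tested. RefSeq gives the 8 hosts 14 windows in all, as 4 hosts have more than 1 start site. Of these 14 windows, 1 of the 3 of Art3 held the interferon letters, and none held the kappa B or AP-1 letters, which says only that these letters are not in the other windows. The window of Patl2 and, of Art3, the window at its outermost start, the hosts of B2m and Cxcl10, are printed for comparison and have no capitals.
Patl2 (chr2:122186140-122186439, - strand): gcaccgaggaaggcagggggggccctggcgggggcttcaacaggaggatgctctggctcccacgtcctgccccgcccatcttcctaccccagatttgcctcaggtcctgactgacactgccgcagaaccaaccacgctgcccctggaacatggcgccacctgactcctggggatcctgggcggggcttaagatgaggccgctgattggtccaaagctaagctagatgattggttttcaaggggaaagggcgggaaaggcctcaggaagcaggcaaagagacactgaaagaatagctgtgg
Art3 (chr5:92331577-92331876, + strand): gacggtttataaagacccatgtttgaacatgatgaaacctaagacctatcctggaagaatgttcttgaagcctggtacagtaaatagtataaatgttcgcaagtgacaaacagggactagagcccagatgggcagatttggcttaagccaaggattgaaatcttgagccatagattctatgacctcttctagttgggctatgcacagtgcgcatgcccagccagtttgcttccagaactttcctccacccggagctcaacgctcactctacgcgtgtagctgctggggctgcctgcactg

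The hidden genes were at 0 together with the other genes reported inside the hosts. Of the 15 genes reported wholly inside the 8 hosts, the hidden genes were at 0 by the choice of the hosts. The others also had 0 reads in every library. Besides the hidden genes they were Trim69 in Patl2, Heatr9 in Gm32650, 4933405E24Rik in Gm12223, and Gpr171, P2ry14, F630111L10Rik and P2ry13 in Med12l. The 3 genes that reached beyond a host were not all at 0. Ahcyl1, with 1.00% of its span under Gm40121, had 10586 to 25211 reads per library, and Rbks, with 53.4% under Gm38424, had 127 to 325. Igsf10, with 6.18% under Med12l, had 0 to 3.

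The same held across the listed genes. Of the 769 protein-coding genes whose span lies inside another listed gene, 731 were at 0 in all libraries, or 95.1% (95% Wilson interval 93.3 to 96.4). Among 20526 protein-coding genes not inside another gene, 2869 were at 0 (13.5 to 14.5%). Genes overlapped only in part were at 0 in 194 of 5808 cases, or 3.34%. The share at 0 was 95.7% for enclosed genes on the strand opposite to the host (425 of 444) and 98.8% for those on the same strand (238 of 241). Genes enclosed in both RefSeq and GENCODE without exon overlap with the host were at 0 in 239 of 243 cases, or 98.4%. With exon overlap the share was 107 of 110, or 97.3%. It was lower, at 68 of 84 or 81.0% (71.3 to 87.9), where the strand of the gene or host was not given. In each of these classes most enclosed genes were at 0, with and without exon overlap and on either strand. The intervals cover counting of genes only, which are not independent replicates.

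**Figure D2:**
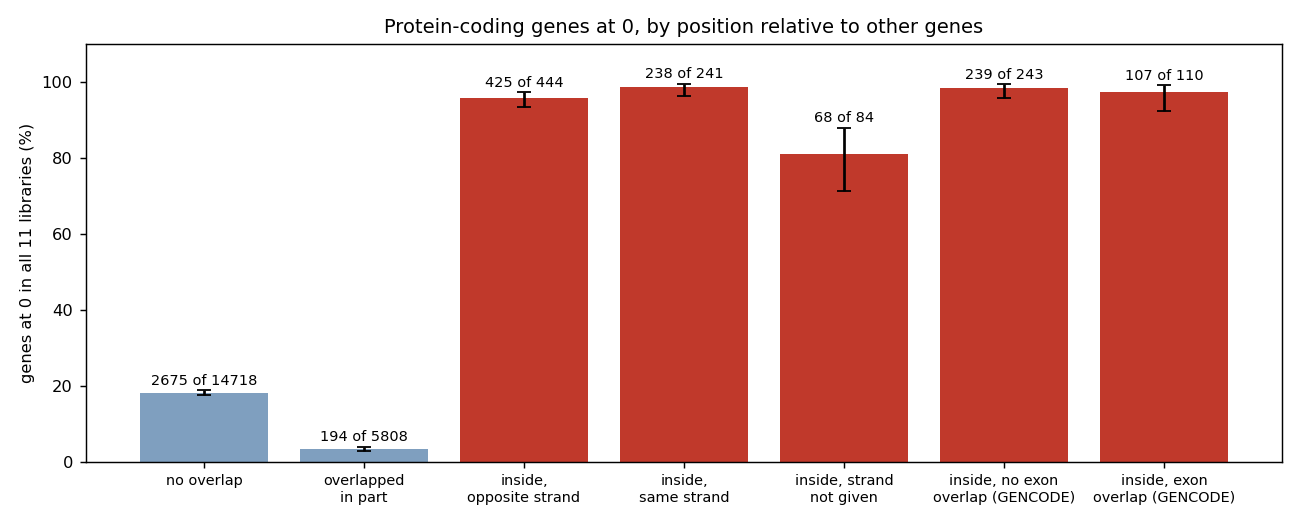
Percent of protein-coding genes at 0 in all 11 libraries (y axis) by position relative to other listed genes, with 95% Wilson intervals as error bars and gene numbers above. Genes inside another gene stand at 95.7 to 98.8% on either strand and with or without exon overlap and at 81.0% where a strand was not given, against 18.2% of genes that overlap no other gene and 3.34% of those overlapped in part.

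At the loci of the members the hidden genes were at 0 by choice, so these loci are given as a description. By GENCODE exons, 0 of the 860 exonic bases of B2m lie under an exon of Patl2, 133 of 2252 bases of Cxcl10 under Art3 and 9 of 2546 bases of P2ry12 under Med12l. Exonic bases free of the host were therefore present in all 3, and they still had 0 reads. The other 5 hosts, where GENCODE gives them a single entry by that name, do not enclose their hidden gene there. For Ccl5, Il6, Csf1, Csf2 and Mrpl33, enclosure by the named host was thus seen in the RefSeq annotation alone. Other GENCODE genes around them were not looked up. There were 38 enclosed protein-coding genes above 0, led by Lcp2, Mydgf, Gnpda1, Bcl2a1d and Cdk2, and the annotation release used in the counting is not given in the sources used here. A count of 0 in B2m, Ccl5, Cxcl10, Il6, Csf1, Csf2, P2ry12 or Mrpl33 was therefore not read as a measurement of its level. No limit on the RNA of these genes was set from it, and no change with either fragment is stated.

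Reads that HTSeq tallied as ambiguous are summed over all genes, and whether reads of the hidden genes are among them cannot be read from the files. They numbered 1756221 to 2908592 per library. Their share of tallied reads was 3.37% ± 0.014 in ControlA and 3.51% ± 0.044 in ApoE4 (SD, n = 3 each), a difference of 0.139 percentage points, and the 2 groups did not overlap. In the nApoE3 experiment it was 3.24% ± 0.0051 in ControlB (SD, n = 3) and 3.43% in ApoE3 (n = 2), a difference of 0.188 percentage points, again without overlap. In both experiments the exact two-sided permutation test gave p = 0.1, which is the smallest p these group sizes allow. The number of ambiguous reads per library, not divided by depth, overlapped between the groups.

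The hosts themselves responded to both fragments in most cases. Of the 8 hosts, 6 had enough reads for the test in the nApoE4 experiment, of which 4 rose and 1 fell by edgeR's quasi-likelihood test (adjusted p under 0.05). Among the 14240 genes tested there, 57.2% were called, with 28.6% higher and 28.6% lower. In the nApoE3 experiment 7 hosts were tested, of which 5 rose and 1 fell, where 67.7% of 14817 genes were called, with 33.1% higher and 34.6% lower. As a description, the median log2 fold change of the tested hosts was 0.91 and 1.77, against 0.0013 and -0.0026 over all genes tested. Gm32650 passed the low-count filter of the nApoE4 experiment through its treated libraries alone, so it had to differ there, and its rise is given as a description. Without it, 3 of 5 hosts tested rose with nApoE4 1–151. Hosts of all 731 hidden protein-coding genes numbered 588, of which 96 of 330 tested were higher and 77 lower with nApoE4 1–151, with a median log2 fold change of 0.073. With nApoE3 1–151, 108 of 345 were higher and 111 lower, with a median of 0.032. Where in a host its reads fell is not in the files, so no host value was taken for the gene inside it. In bulk RNA, fewer cells with a transcript and less transcript per cell cannot be told apart.

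Gm32650, the host of Ccl5, had the largest rise among the tested hosts in both experiments. Its counts were 11, 9 and 10 in ControlA against 205, 242 and 243 in ApoE4. They were 24, 9 and 13 in ControlB against 209 and 167 in ApoE3. All treated libraries stood far above all controls, at 5.54 ± 0.74 CPM with nApoE4 1–151 and 3.01 ± 0.40 CPM with nApoE3 1–151. The log2 fold change was 4.63 (SE 0.19) for nApoE4 1–151, given with no p since the filter chose it, and 4.60 (SE 0.21, edgeR adjusted p 1.3e-13) over all genes with at least 1 count. It was 3.74 (SE 0.25, adjusted p 4.3e-08, edgeR) for nApoE3 1–151. The difference between the responses was 0.88 (SE 0.38), which did not pass the test (edgeR adjusted p = 0.104). Ccl9, another chemokine gene and the nearest measured gene beyond Gm32650, rose by 2.71 and 2.53 on the log2 scale. On the other side Taf15, which encodes an RNA-binding protein, rose by 1.06 and 0.23.

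Patl2, the host of B2m, was the host with the highest counts. It stood at 14.8, 15.5 and 14.3 CPM in ControlA and at 27.5, 24.6 and 26.2 CPM in ApoE4. In the nApoE3 experiment it stood at 7.30, 7.85 and 7.72 CPM in ControlB and at 25.2 and 22.1 CPM in ApoE3. The treated libraries of both experiments lay near each other, while the controls differed. The log2 fold change was 0.90 (SE 0.080, adjusted p 8.6e-06, edgeR) for nApoE4 1–151 and 1.77 (SE 0.064, adjusted p 1.3e-10, edgeR) for nApoE3 1–151. The response to nApoE4 1–151 was smaller by 0.88 (difference -0.88, SE 0.11, edgeR adjusted p 8.1e-05). Untreated levels differed by -0.93 on the log2 scale between ControlB and ControlA (edgeR adjusted p 1.4e-05), so the difference in response and the difference in control level came together and cannot be told apart. Spg11, which begins 0.674 kb beyond Patl2, had log2 fold changes of 0.0016 and 0.021 (edgeR adjusted p 0.991 and 0.562).

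Art3, the host of Cxcl10, stood at 0.604, 0.589 and 0.873 CPM in ControlA and at 1.31, 1.23 and 1.15 CPM in ApoE4. It stood at 0.588, 0.524 and 0.914 CPM in ControlB and at 2.72 and 2.45 CPM in ApoE3. The groups of each experiment did not overlap, and the controls of the experiments covered nearly the same range. The log2 fold change was 0.92 (SE 0.22, adjusted p 0.0047, edgeR) and 2.08 (SE 0.21, adjusted p 2.7e-06, edgeR) for the fragments in the same order. The response to nApoE4 1–151 differed from that to nApoE3 1–151 by -1.16 (SE 0.32, edgeR adjusted p 0.0169). Fragment and experiment cannot be told apart in that difference. Without ApoE3 replicate 1 that difference was -1.08 and no longer passed (edgeR adjusted p 0.0731). Nup54, a nucleoporin gene 0.912 kb beyond Art3, rose by 0.75 and 0.35.

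Gm40121, the host of Csf1, had counts of 28, 16 and 24 in ControlA and 88, 114 and 96 in ApoE4. Its counts were 34, 26 and 20 in ControlB and 113 and 136 in ApoE3. Every treated library was above every control. The log2 fold change was 2.24 (SE 0.24, adjusted p 3.4e-05, edgeR) and 2.35 (SE 0.20, adjusted p 4.7e-07, edgeR), and the responses differed by -0.12 (SE 0.33), which did not pass the test (edgeR adjusted p 0.822). A230098N10Rik, the host of Il6, had 9, 16 and 10 reads in ControlA and 10, 15 and 14 in ApoE4, which overlap. It had 29, 18 and 28 reads in ControlB and 57 and 66 in ApoE3. Its log2 fold change was 0.27 (SE 0.34, edgeR adjusted p 0.524) for nApoE4 1–151 and 1.42 (SE 0.25, edgeR adjusted p 2.9e-04) for nApoE3 1–151. The difference between the responses, -1.16 (SE 0.44), missed the threshold (edgeR adjusted p 0.0692), so the fragments were not shown to differ.

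Med12l, the host of P2ry12, was the tested host that fell. It stood at 5.56, 5.57 and 6.59 CPM in ControlA and at 3.16, 4.26 and 3.90 CPM in ApoE4. In the nApoE3 experiment it stood at 1.88, 1.69 and 1.63 CPM in ControlB and at 0.881 and 0.719 CPM in ApoE3. The groups did not overlap in either experiment, and all 4 groups stood apart from each other. The log2 fold change was -0.56 (SE 0.13, adjusted p 0.0049, edgeR) and -0.98 (SE 0.18, adjusted p 4.2e-04, edgeR). The responses differed by 0.41 (SE 0.21), which did not pass the test (edgeR adjusted p 0.181). Between the untreated groups the change was larger, at -1.73 (SE 0.11, edgeR adjusted p 4.9e-06).

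Gm12223, the host of Csf2, was close to 0 throughout. It had 0 reads in all of ControlA and 0, 1 and 1 in ApoE4. It had 1, 0 and 2 reads in ControlB and 7 and 4 in ApoE3, and was too low for the test as filtered. The ratio of pooled levels was 5.49 (exact 95% counting interval 1.45 to 30.6). That interval covers the counting of reads only, not the spread between libraries. Without the filter the log2 fold change of Gm12223 in ApoE3 against ControlB was 2.43 (SE 1.02, edgeR adjusted p 0.0557). With DESeq2 it was 2.55 (SE 1.55, DESeq2 adjusted p 0.177), and neither fit passed. Gm38424, the host of Mrpl33, had 8, 9 and 3 reads in ControlA and 10, 19 and 11 in ApoE4. It had 9, 12 and 9 reads in ControlB and 13 and 8 in ApoE3, with a log2 fold change of 0.19 (SE 0.44, edgeR adjusted p 0.717). In the nApoE4 experiment it did not pass the low-count filter, and without the filter its log2 fold change was 1.07 (SE 0.46, edgeR adjusted p 0.0786).

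**Figure D3:**
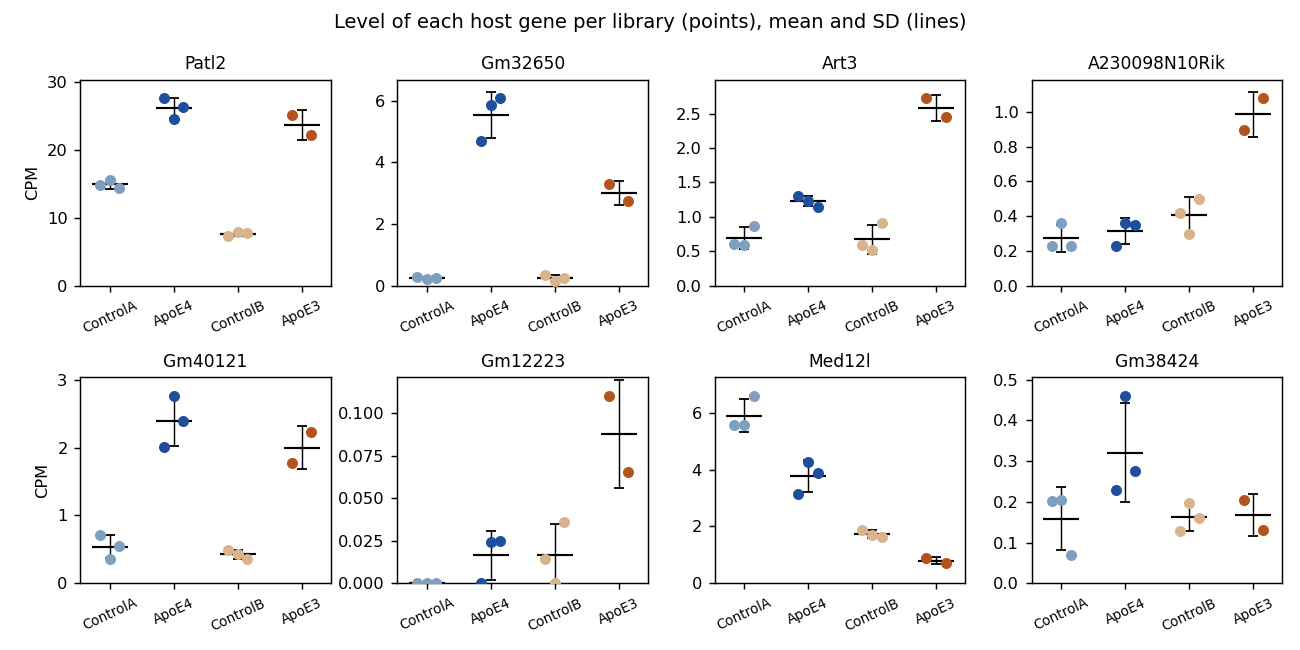
Level of each host gene in CPM (y axis, linear, from 0) in the 4 groups, with a point per library, the mean as a horizontal line and the SD as a vertical bar. Gm32650 goes from 0.237 to 5.54 CPM in the nApoE4 experiment, Med12l stands lowest in ApoE3, and Gm12223 has at most 7 reads in a library.

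The CPM of treated and control libraries were apart, in the direction of higher, for 4 of the 6 hosts tested in the nApoE4 experiment and for 5 of 7 in the nApoE3 experiment, where 26.6% and 28.3% of the genes tested were. The 4 include Gm32650, which passed the low-count filter there through its treated libraries alone and so had to differ. Of the untested hosts, Gm38424 was higher without overlap in the former and Gm12223 in the latter. Lower without overlap was Med12l in both, where 38.1% and 50.3% of genes were. Between ControlB and ControlA, Patl2 and Med12l were lower by the test among 6 hosts tested, where 69.3% of 14249 genes were called and 34.9% were lower, and no host was higher beside 34.4% of genes. Their CPM were also the ones without overlap between the untreated groups, where 39% of genes were lower and 34.8% higher in that sense. Experiment and anything that differed with it cannot be told apart in that comparison. The difference between the responses passed for 2 of 7 hosts tested, Patl2 and Art3, both with the smaller response to nApoE4 1–151, beside 28.3% of 15287 genes in either direction and 13.9% in that direction. There too, each fragment cannot be told apart from its experiment.

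**Figure D4:**
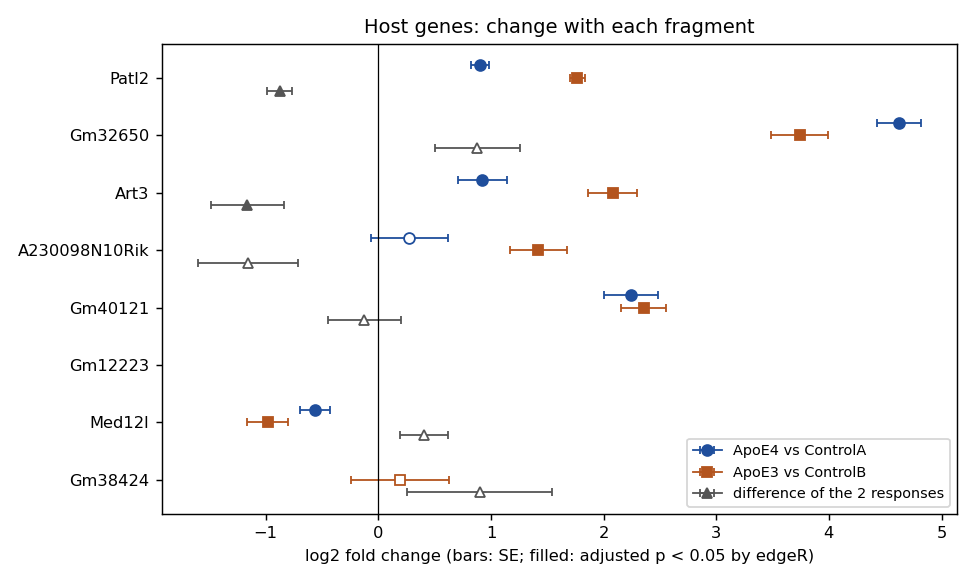
Log2 fold change of each host gene (x axis) with nApoE4 1–151 (blue circles), with nApoE3 1–151 (orange squares) and the difference of the responses (grey triangles), with SE as bars and filled symbols for adjusted p under 0.05 by edgeR. Gm12223 was too low to test. Gm32650 passed the filter of the nApoE4 experiment through its treated libraries alone, so its filled circle is a description. Patl2 and Art3 are the hosts with filled triangles, at -0.88 and -1.16.

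Per length, most hosts were covered sparsely. CPM per kb of host outside other genes was set beside the reads that fell outside every listed gene, taken over the 1500 Mb between listed genes, which gave 0.0162 to 0.0188 CPM per kb in the 4 groups. Patl2 lay 20.4 times above that density in ControlA, 32.7 times in ApoE4, 11.1 times in ControlB and 32.8 times in ApoE3. Gm32650 lay below it in the controls, at 0.699 and 0.758 times, and above it with treatment, at 14.9 and 8.97 times. The other hosts were between 0 and 1.71 times in ControlA and ControlB. Med12l fell from 1.71 to 0.996 times in the nApoE4 experiment and stood at 0.533 and 0.234 times in ControlB and ApoE3. Art3 reached 1.89 times and A230098N10Rik 2.95 times in ApoE3, and Gm40121 1.31 and 1.21 times in the treated groups. Gm38424 stayed at 0.489 to 0.907 times, and Gm12223 at 0.064 times or less. The density outside genes is a rough level, since 2519 listed genes had no position and unlisted transcripts count in it. It also takes whole genes, on either strand, as the counted features, which the sources used here do not give. Had exons been the features, reads in introns would count in it too. Per kb of GENCODE exon outside other genes, the level in ControlA was 6.11 CPM for Patl2, 0.716 for Med12l and 0.181 for Art3, in the same order as per kb of span.

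**Figure D5:**
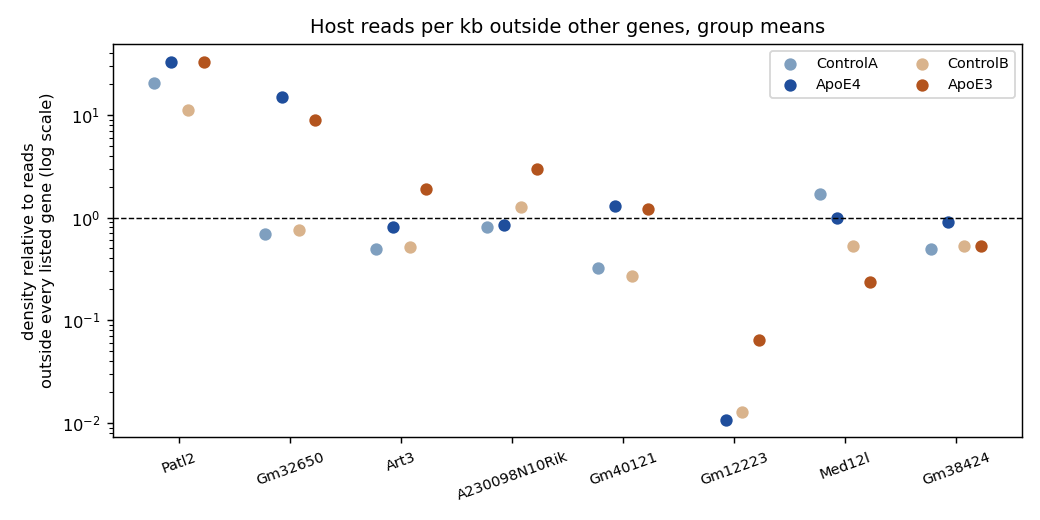
Reads per kb of each host outside other genes, as group means relative to the density of reads outside every listed gene (y axis, log scale; dashed line at 1). Patl2 lies above the line in all 4 groups and Gm32650 only in ApoE4 and ApoE3, at 14.9 and 8.97; the ControlA value of Gm12223 is 0 and is not drawn.

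Other genes of the hidden genes' pathways that were counted describe what the files do hold. The counts of each list below stand beside 28.6% of all tested genes higher and 28.6% lower with nApoE4 1–151, and 33.1% higher and 34.6% lower with nApoE3 1–151. Genes given with values were picked by the smallest edgeR adjusted p with nApoE4 1–151, at most 2 per list. They are therefore not typical of their lists. MHC class I genes and loading factors, partners of B2m, rose in 9 of 13 tested with nApoE4 1–151 and in 10 of 15 with nApoE3 1–151, and 0 and 2 fell. H2-Q4, a class I heavy chain of a family with near copies, rose by 2.72 and 2.27, and Tapbpl, a peptide editor, by 1.42 and 1.51. Chemokines besides Ccl5 and Cxcl10 rose in 9 of 11 and 9 of 10 tested, 2 and 0 fell, and Cxcl2 went from 0.565 to 266 CPM and from 0.882 to 236 CPM. The median log2 fold change of that list was 2.71 and 4.76. Genes of the IL-6 family and its signalling, listed with the inflammatory cytokines Il1b and Tnf, rose in 6 of 9 and 7 of 10, and 2 fell in each. Among these Socs3, which restrains cytokine signalling, rose by 2.94 and 2.41. Of 8 colony-stimulating factor genes and receptors, 3 rose and 3 fell with nApoE4 1–151, and 5 rose and 1 fell with nApoE3 1–151. The median log2 fold change of these 8 was -0.037 with nApoE4 1–151 and 0.37 with nApoE3 1–151. Csf3, the granulocyte factor, rose by 7.01 and 7.79 on the log2 scale, and Csf2rb, a receptor chain with a near copy, fell by 0.76 with nApoE4 1–151 and rose by 0.32 with nApoE3 1–151. Purinergic receptors and partners of P2ry12 rose in 2 and fell in 4 of 7 tested with nApoE4 1–151, and rose in 1 and fell in 4 with nApoE3 1–151, with P2rx7, an ATP-gated channel, at log2 fold changes of -0.91 and -0.75 and P2ry2, a nucleotide receptor, at 0.72 and 1.28. Of 27 genes of the large mitochondrial ribosomal subunit, 3 rose and 5 fell with nApoE4 1–151, and 7 rose and 9 fell with nApoE3 1–151. Mrpl18 was among those lower, at -0.91 and -0.47. Across these lists 6 genes were at 0 in every library, H2-T23, Ccl6, Clcf1, P2ry13, P2ry14 and Gpr34, and all 6 lie inside another gene.

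The genes most like each host were taken by the mean absolute difference of centred log2 CPM over the 11 libraries, among 15287 genes. Patl2 was closest to Uba7, the enzyme that activates the ubiquitin-like protein Isg15 (0.098), and to Atf3, a stress-induced transcription factor (0.10). Art3 was closest to Eif2ak2, the kinase PKR that senses double-stranded RNA (0.20), and to Parp12 (0.20). Gm40121 was closest to Gm32342 and to Il15ra, a cytokine receptor (both 0.18), and Gm32650 to Gm34319 (0.23) and Gm41647 (0.24). Med12l was closest to Acox3, a peroxisomal oxidase (0.11), and Mlycd (0.12). A230098N10Rik was closest to 5730508B09Rik and Lrp12 (both 0.22), and Gm38424 to Lgr4 (0.24) and Gm12506 (0.25). The log2 CPM used a prior count of 2, and a small distance is not an equal fold change by edgeR. Gm41647 had log2 fold changes of 8.33 and 6.08 and Gm34319 of 4.07 and 3.29, against 4.63 and 3.74 for Gm32650. These distances describe the libraries and carry no test.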

How the data were processed

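RNA from 11 BV2 samples was sequenced as 75 bp single-end reads. Reads were trimmed by the authors (Trim Galore 0.5.0), who checked them with FastQC 0.11.8, mapped them to GRCm38.p6 with HISAT2 2.1.0 and deposited raw counts per gene from HTSeq 0.11.0, without normalization. The annotation release, feature type, strand setting and overlap mode are not given in the sources used here. Reads that overlapped several genes were tallied apart, at 3.24 to 3.56% of reads.

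Counts were tested in R 4.3.3 with edgeR 4.0.16 (filterByExpr, TMM, quasi-likelihood F test, Benjamini-Hochberg adjustment over all genes tested), each fragment against its own controls, and the difference of responses over 11 libraries. SEs are approximate, as the log2 fold change over the square root of F. The ambiguous share was compared by an exact permutation test (scipy 1.17.1). Positions came from RefSeq for 34010 of 36529 listed genes (93.1%), and exons from GENCODE. Replicate counts differed by more than sampling noise in every pair. All hosts, hidden genes, genes overlapping hosts, nearest neighbours with a mean of at least 10 counts and fixed pathway lists were named, except for 1 item that is not reported here. The members and lists were chosen with earlier results of these data known. The density outside genes and the promoter motifs were added after seeing the data, and the kappa B and interferon motifs were shortened by 1 base after a first search with longer forms, which had not matched the Csf2 window. Alternatives were DESeq2 1.42.0, its size factors in edgeR, no filter, all libraries in 1 fit, a replicate block and leaving out each replicate.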

Additional observations from a re-analysis of the deposited data

Results flagged for a closer look

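The responses of Patl2 and Art3 in the separate experiments differed by the test of the difference itself. Each fragment was given in an experiment of its own, so fragment and experiment cannot be told apart in that difference. For Patl2 the log2 fold change with nApoE4 1–151 minus that with nApoE3 1–151 was -0.88 (edgeR adjusted p 8.1e-05), and it stayed between -0.97 and -0.77 over 15 alternatives. For Art3 it was -1.16 (edgeR adjusted p 0.0169), between -1.43 and -0.97 over 15 alternatives, with adjusted p from 0.0034 to 0.0731. Patl2 counts differed between the untreated groups as well, and the part of that difference was not tested. Groups had at most 3 libraries, so no library was tested for standing apart.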

How the results depend on the processing

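Of 307 alternative values of single hosts, 297 kept their direction and side of the threshold. With the replicate number as a block, the count of genes whose responses differed was 2307 in place of 4331, and the block ended or made no call of a host. Same-numbered libraries did not deviate together (correlations -0.17 to -0.0079), so the numbers do not pair them. Without single replicates that count ranged from 3040 to 5250, genes called from 7142 to 8827 for nApoE4 1–151, 9121 to 9837 for nApoE3 1–151 and 8949 to 10988 between controls. Signs turned only among calls that had not passed. Leaving out ApoE3 replicate 1 gave Gm38424 -0.17 for nApoE3 1–151 (highest 0.48). Between controls, leaving out ControlB replicate 1 gave Gm32650 -0.26 (highest 0.36), and leaving out ControlA replicate 1, ControlA replicate 2 or ControlB replicate 3 gave Art3 -0.085, -0.076 and -0.26 (highest 0.20). For the difference of responses, Gm40121 was 0.093 without ControlA replicate 1 and 0.036 without ApoE3 replicate 2 (lowest -0.32). Calls changed for 3 values. Art3 missed the threshold without ApoE3 replicate 1 (-1.08, adjusted p 0.0731), Gm32650 passed without ControlB replicate 2 (1.13, adjusted p 0.0323), and A230098N10Rik passed between controls without ControlA replicate 2 (0.88, adjusted p 0.0485). Gm38424 in the nApoE4 experiment, not tested as filtered, passed with all 11 libraries in 1 fit (adjusted p 0.0448) and without ControlA replicate 2 (1.36, adjusted p 0.0467), and missed in the other 5 fits that tested it (adjusted p 0.0590 to 0.189). Genes with all exons inside exons of other genes were a separate class, drawn from all protein-coding genes. Of these 21 genes, 15 were at 0, or 71.4% (95% Wilson interval 50.0 to 86.2). Of the protein-coding genes enclosed by span, 96.4% had at most 3 counts in every library. Per exon length, ControlA levels were 6.11 CPM per kb for Patl2, 0.181 for Art3 and 0.716 for Med12l, against 0.351, 0.0085 and 0.029 per span. The difference in ambiguous share ranged from 0.114 to 0.156 and from 0.186 to 0.191 percentage points without single replicates. The causes were not tested. Gm12223 and Gm38424 had at most 7 and 19 reads in a library, where counting error is large, and the annotation used by the authors was not known.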
